A study of Homo sapiens with 16 samples.

Results

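The distal end of the long arm of human chromosome 19 carries long runs of zinc finger genes interrupted by other gene families. Its members here were chosen by position alone, as every gene of the deposited table that starts on chromosome 19 from position 52374535 (hg19 genome build) to the end of the long arm. This gave 216 genes of 19333 in the table. They are described in 3 stretches, cut at fixed positions, a proximal one of 43 genes (52374535 to 54140263), a middle one of 74 genes (54296857 to 56092187) and a distal one of 99 genes (56102746 to 59084942). Their RNA was measured by total RNA-seq, after removal of ribosomal RNA, in HEK293 cells, an established human embryonic kidney line. Scramble cells (2 libraries) had received a negative control RNA, and Top1 KD cells (2 libraries) had received siRNA against Top1, the nuclear DNA topoisomerase I that relaxes supercoils ahead of and behind RNA polymerase. Both groups went through the same repeated transfection. The study used more than a single Top1 siRNA, and which of them these libraries received is not given in the sources used here.

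Most zinc finger genes of this region encode KRAB zinc finger proteins. Such a protein binds DNA through an array of C2H2 fingers, and its KRAB domain recruits the corepressor TRIM28 (KAP1), which in turn brings the histone methyltransferase SETDB1 and the repressive mark H3K9me3. Many of them are known for binding and silencing transposable elements, and the families arose by tandem duplication, so neighbours share much of their sequence. The middle stretch is known for the leukocyte receptor complex, whose LILR, LAIR and KIR receptors are made by blood cells, and NLRP genes of the germ line lie in and beyond it. In the RefSeq gene list (GRCh38.p14), 267 of the 1451 protein-coding genes of chromosome 19 have a zinc finger symbol (ZNF, ZSCAN, ZFP and the like), against 575 of 20056 in the genome. Among the 216 protein-coding genes nearest the end of the long arm in that list, 101 have such a symbol, 19 are LILR, LAIR or KIR genes and 9 are NLRP genes.

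The members themselves are listed in the deposited table by Ensembl transcript identifier, and none of the 19333 identifiers matched a key of the name tables used here. No member could therefore be called a zinc finger gene or anything else by name, and no promoter sequence could be attached to it. The fall of the TOP1 transcript and the marker genes of HEK293 cells could not be checked for the same reason, so the comparison rests on the labels. Members are given below by their hg19 position as deposited, and 3 of them also by identifier.

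The libraries held 15258182 and 18366226 reads on genes in scramble cells and 14681774 and 16503586 in Top1 KD cells. Values are normalized counts, meaning reads divided by a size factor for each library, so they can be compared between libraries and not between genes of different length. Of these reads, 61354 and 72343 fell on the members in scramble cells and 51036 and 61396 in Top1 KD cells. Scramble replicates differed from each other at least 1.5-fold for 26 of the tested members (20.8%), against 13.8% of all tested genes. Top1 KD replicates did so for 29 members (23.2%), against 18.5%. The submitters describe the samples as coming from different cell passages and give no further detail on the replicates, so p-values measure the spread between these libraries, which may be partly technical.

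Many members had few reads or none in these cells. No read was counted in any library on 49 of the 216 members, and another 42 had reads but did not reach the filter (10 normalized counts or more in 2 libraries or more). The other 125 (57.9%) were tested, against 67.7% of the whole table. Some rows without a read share bases with another row, as at 54720797 to 54746602, where members have the same start and end. The effect of shared bases on these counts was not tested. In bulk RNA, fewer cells with a transcript and less of it per cell cannot be told apart. The proximal stretch had 28 of 43 members tested and the distal stretch 66 of 99. In the middle stretch only 31 of 74 members (41.9%) were tested and 26 had no read at all. Of those 26, 12 lay in a single run. Between 55014013 and 55512510, 16 consecutive members were untested, these 12 without a read and the others with at most 4 reads in any library. Within that run, 9 neighbours from 55105113 to 55378662 had no read in any of the 4 libraries. The leukocyte receptor genes are known from this part of the chromosome, but these rows were not matched to them.

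The distal stretch held untested runs of fewer members. From 56219798 to 56573179, 8 consecutive members were untested, with at most 11 reads in any library, and from 57154513 to 57678811 there were 7, with at most 12. Active members also came in runs. The first 13 members of the region, from 52374535 to 52829175, were all tested, as were 13 in a row from 57752260 to 58090295 and the last 11, from 58919992 to 59084942. The tested and untested runs had the same borders in both groups by construction, since the filter was applied to the 4 libraries together.

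Tested members had a median of 203.7 normalized counts over the 4 libraries and a median span of 13.4 kb, and all tested genes had 541.8 normalized counts and 31.4 kb. Reads were concentrated on a few of them, and the 5 most read members took between 40.7% and 44.5% of all member reads, depending on the library.

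Levels of single genes were ranked per kb of gene span, which includes introns. On that scale the most expressed member was the gene at 58897767 to 58906173 (plus strand), with 1052 normalized counts per kb. Its values were 10769 and 7823 normalized counts in scramble cells and 7870 and 8897 in Top1 KD cells. The groups overlapped, and the log2 fold change of -0.13 (SE 0.12, adjusted p = 0.513 by limma) did not pass the test. The gene at 59055836 to 59062083 followed with 742 per kb, and its counts were 3725 and 4960 in scramble and 4148 and 5707 in Top1 KD cells. Here too the groups overlapped (log2 fold change 0.18, SE 0.14, adjusted p = 0.446 by limma), and the first replicate was the lower one in both groups.

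In the middle stretch the gene at 55912652 to 55919145 had 717 normalized counts per kb. Its values were 4776 and 5339 in scramble cells against 3912 and 4601 in Top1 KD cells. The gene at 54704610 to 54711515 had 526 per kb, with 4015 and 3802 against 3353 and 3345 normalized counts. For both, each Top1 KD library lay below each scramble library, with log2 fold changes of -0.25 (SE 0.11) and -0.22 (SE 0.10), and neither passed the test (adjusted p = 0.126 and 0.143 by limma). Proximal members were lower, led by the gene at 52693292 to 52730687 with 115 normalized counts per kb and then the gene at 52516578 to 52531823 with 29.4.

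To determine how the region responded to Top1 depletion, a limma model was fitted to log2-transformed normalized counts (pseudocount 1) of all 13086 genes that passed the filter. A gene was called where its adjusted p (Benjamini-Hochberg over all tested genes) was under 0.05 and the groups differed 1.5-fold or more. Changes are given as log2 fold changes, Top1 KD against scramble, with their standard error (SE). Of the 125 tested members, 1 was called higher and 5 were called lower in Top1 KD cells. Among all tested genes 3.88% were called higher and 4.26% lower, 8.15% in either direction, and the 6 called members make 4.80% of those tested. An adjusted p under 0.05, whatever the size of the change, was found for 7 members (5 called lower, 1 called higher and 1 below 1.5-fold), against 14.8% of all tested genes. At an unadjusted p under 0.05 there were 23 of the 125 members, 21 of them lower and 2 higher in Top1 KD cells. Among all 13086 tested genes there were 3830, 1925 lower and 1905 higher. The 21 include the gene at 52658125, which passed the filter through the scramble libraries alone.

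**Figure D1:**
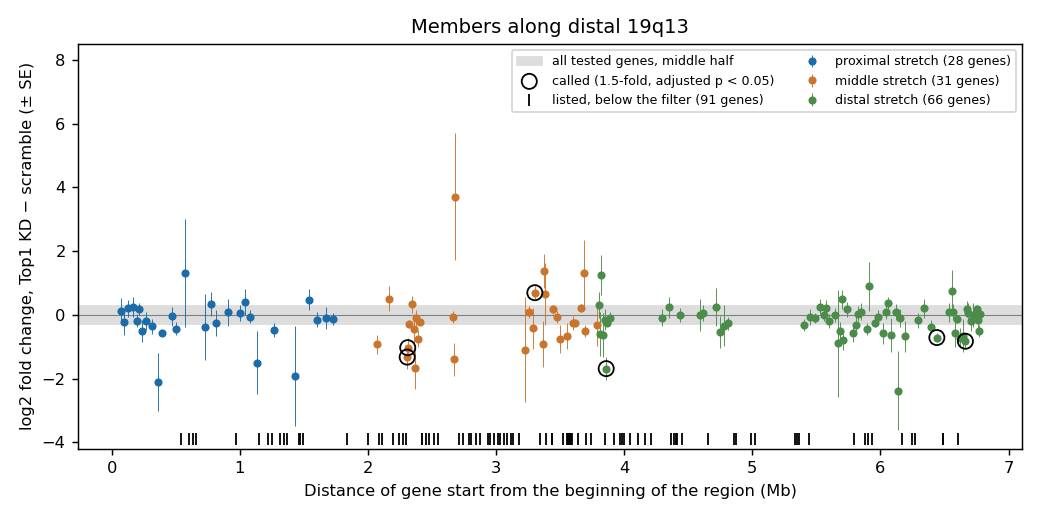
Each point is a tested member at its distance (Mb, horizontal axis) from the beginning of the region, with its log2 fold change between Top1 KD and scramble cells and its standard error on the vertical axis. Circles mark the 6 called members, the grey band runs from the lower to the upper quartile of all tested genes (-0.30 to 0.28), and ticks at the bottom are the 91 members below the filter.

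All 5 members called lower had each Top1 KD library below each scramble library, and 2 of them were next to each other in the middle stretch. The first was ENST00000485876 (54606145 to 54610875, plus strand), with 177 and 209 normalized counts in scramble cells and 54.1 and 108 in Top1 KD cells. The Top1 KD replicates stood further apart than the scramble replicates. Its log2 fold change was -1.32 (SE 0.38, adjusted p = 0.0291 by limma), a 2.50-fold fall, and it was -0.83 without Top1 KD replicate 1.

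Its neighbour at 54610320 to 54619055, on the minus strand, had 235 and 226 normalized counts in scramble cells and 133 and 95.0 in Top1 KD cells. The scramble replicates were close and the Top1 KD replicates stood further apart. Its log2 fold change was -1.03 (SE 0.31, adjusted p = 0.0339 by limma), and it was -1.27 without Top1 KD replicate 1 and -0.79 without Top1 KD replicate 2. The genes of this pair share 555 bases at their ends, and the second shares 218 bases with the next member, at 54618837 to 54635140. That next gene had 2128 and 2079 against 1612 and 1832 normalized counts, and its log2 fold change was -0.29, which did not pass the test (SE 0.12, adjusted p = 0.105 by limma). Whether the counting used the strand is not given in the sources used here, so reads of the shared ends cannot be assigned with certainty, and their part in these values was not tested.

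The single member called higher, ENST00000263433 (55602281 to 55628927, minus strand), also lies in the middle stretch. Its values were 293 and 449 normalized counts in scramble cells and 586 and 592 in Top1 KD cells. The Top1 KD replicates were nearly equal, while the scramble replicates stood apart. The log2 fold change was 0.70 (SE 0.21, adjusted p = 0.0372 by limma), a 1.62-fold rise, and it fell to 0.39 without Scramble replicate 1 (adjusted p = 0.439 by limma).

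The other 3 members called lower lie in the distal stretch. ENST00000308964 (56159401 to 56164527, plus strand) had the largest fall of the called members. Its counts went from 282 and 172 in scramble cells to 61.7 and 74.6 in Top1 KD cells, which is -1.69 on the log2 scale (SE 0.36, adjusted p = 0.00614 by limma), or 3.22-fold. The lower scramble library was still more than 2-fold above the higher Top1 KD library. The gene that follows it, at 56165512 to 56186081, had 4259 and 4008 against 3320 and 3576 normalized counts, again without overlap, and its log2 fold change of -0.26 did not pass the test (SE 0.10, adjusted p = 0.0893 by limma).

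The gene at 58740070 to 58775010 (plus strand, 34.9 kb) had 1500 and 1985 normalized counts in scramble cells and 1124 and 989 in Top1 KD cells. It is the only called member with a mean above 1000, and its log2 fold change was -0.71 (SE 0.15, adjusted p = 0.00467 by limma). The gene at 58962971 to 58969200 (plus strand) had 284 and 338 against 163 and 186 normalized counts. The replicates of each group were within a narrow range, and the log2 fold change was -0.83 (SE 0.25, adjusted p = 0.0396 by limma).

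No member of the proximal stretch was called by limma, edgeR or DESeq2 on the 4 libraries. By limma, 9.68% of the tested members of the middle stretch were called, 4.55% of the distal stretch and 8.15% of all tested genes. Of the 28 tested in the proximal stretch, 3 had an unadjusted p under 0.05 by limma, against 3830 of all 13086 tested genes. Those 3 include the gene at 52658125, which passed the filter through the scramble libraries alone. The most read of them, the gene at 52693292 to 52730687, was chosen for description after its values were seen as well as by its level. It had 5172 and 5069 normalized counts in scramble cells and 3219 and 3676 in Top1 KD cells. The groups were far apart for the spread of the replicates, with a log2 fold change of -0.57 (SE 0.10, adjusted p = 0.00164 by limma), and the change of 1.49-fold lay just under the threshold of 1.5-fold. It was called without Scramble replicate 2 (log2 fold change -0.59) and without Top1 KD replicate 2 (-0.67). Without the latter library the gene at 53431728 was called as well, with 43 and 55 reads in scramble and 3 and 70 in Top1 KD cells. The gene before it, at 52658125 to 52674896, rested on few reads, 37 and 33 in scramble and 8 and 6 in Top1 KD cells. It passed the filter through the scramble libraries alone, so no test is given.

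**Figure D2:**
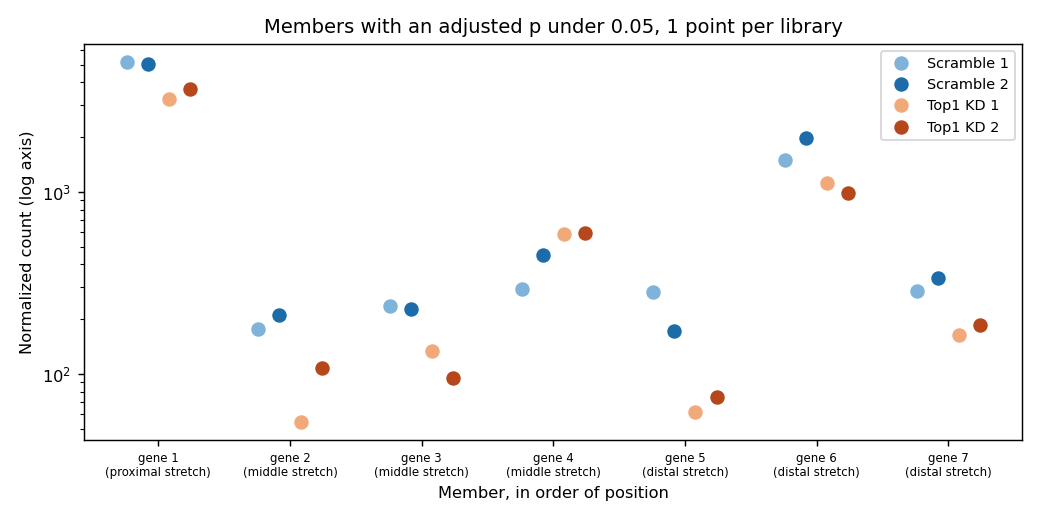
Normalized counts (log axis) in each of the 4 libraries for the 7 members with an adjusted p under 0.05, in order of position, from the gene at 52693292 (gene 1) to the gene at 58962971 (gene 7). In 6 of them both Top1 KD points lie below both scramble points, and in gene 4, ENST00000263433, both lie above.

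The 6 calls depended on single libraries. Each fit that leaves out 1 library has 3 libraries left, and the lone library of a group is then assumed to vary like the others. Without Scramble replicate 1, and likewise without Top1 KD replicate 1, only the gene at 58740070 was called among the 125 tested members. Without Scramble replicate 2, 2 of the 6 were called (ENST00000263433 and ENST00000308964), and without Top1 KD replicate 2, 3 were (ENST00000485876, ENST00000308964 and the gene at 58740070). Over all genes these fits called between 316 and 1329. All 6 members kept their direction in each of the 13 alternative fits run for them. Their groups did not overlap, so leaving out 1 library could not have reversed that direction.

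Beyond the called genes, the tested members leaned towards lower values in Top1 KD cells. Their median log2 fold change was -0.15, with quartiles of -0.50 and 0.11, while the median of all tested genes was 0.003. A lower mean in Top1 KD cells, here and below the mean of the log2 values, was found for 81 of the 125 (64.8%), against 49.8% of all tested genes. The mean normalized count can go the other way where replicates are uneven. The gene at 56894121, counted as lower, had means of 69.5 in scramble and 75.92 in Top1 KD cells. Both Top1 KD libraries lay below both scramble libraries for 44 members (35.2%), against 29.0% of all tested genes. The opposite, both above, was seen for 13 members (10.4%), against 28.8%. The 44 include the genes at 52658125 and 58433252, which passed the filter through the scramble libraries alone. The 13 include the gene at 54976210, which passed it through the Top1 KD libraries alone. With no filter on low values, 167 members had a median of -0.10, and members whose mean reached 100 normalized counts also had -0.10. The median was -0.12 with library-size scaling and -0.15 with TMM scaling of the recovered reads.

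The lean was present in each of the 4 pairings of 1 Top1 KD with 1 scramble library, with medians of -0.22, -0.18, -0.14 and -0.13, and larger for Top1 KD replicate 1 than for replicate 2. Between replicates of the same group the members' median differed by 0.03 (scramble replicate 1 minus 2) and -0.07 (Top1 KD replicate 1 minus 2). The lean did not follow position. In 5 consecutive windows of 25 tested members the medians were -0.18, -0.15, -0.15, -0.07 and -0.15, and from 15 to 18 members of each window had the lower mean in Top1 KD cells. Across the 125 tested members, which share the same libraries, Spearman's rho of position with the log2 fold change was 0.003, and that between neighbouring members was -0.15 (124 pairs), against 0.04 over 13062 neighbouring pairs of the whole table.

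In the proximal stretch the median log2 fold change was -0.14, 18 of 28 members had the lower mean, and 10 had both Top1 KD libraries below both scramble libraries against 1 with both above. That single one was the gene at 52516578, with 410 and 422 normalized counts in scramble and 511 and 447 in Top1 KD cells. The pairwise medians of this stretch ran from -0.25 to 0.001, and its median was -0.05 without Scramble replicate 2 and -0.23 without Scramble replicate 1. In the middle stretch the median was -0.26, with pairwise medians from -0.37 to -0.08, and it was -0.15 without Top1 KD replicate 1. There 13 of 31 members had both Top1 KD libraries below both scramble libraries and 5 had both above. In the distal stretch the median was -0.10, with pairwise medians from -0.21 to -0.10, and 21 of 66 members had both libraries below and 7 both above. The distal median was -0.15 without Scramble replicate 2 and likewise without Top1 KD replicate 1. In order of position, the shares of members with both libraries below were 35.7%, 41.9% and 31.8%, against 29.0% of all tested genes. The distal share was thus near that of all tested genes. The shares with both above were 3.57%, 16.1% and 10.6%, against 28.8%. These shares include genes that passed the filter through 1 group alone. The genes at 52658125 (proximal) and 58433252 (distal) are among those below, and the gene at 54976210 (middle) is among those above.

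The middle stretch had the widest quartiles of the 3, from -0.74 to 0.20 on the log2 scale. Besides the called genes, the gene at 54663902 to 54676944 had 59.8 and 53.7 normalized counts in scramble and 12.99 and 22.3 in Top1 KD cells. The gene at 54972981 to 54974894 had 116 and 68.6 against 40.0 and 28.1, and it overlaps an opposite-strand member by 236 bases. The gene at 55670031 to 55678018 moved the other way, from 47.0 and 22.0 to 84.4 and 85.3. None of these 3, which were picked after their values were seen, passed the test (adjusted p = 0.104, 0.0859 and 0.101 by limma). At 54976210 to 54984411, directly beside the second of them, no read was counted in either scramble library and 10 and 14 reads were counted in Top1 KD cells. It passed the filter through the Top1 KD libraries alone, so no test is given.

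Abundant members shared the lean. Of the 9 members with a mean over 1000 normalized counts, 7 had the lower mean in Top1 KD cells, 6 had both Top1 KD libraries below both scramble libraries, and none had both above. Of the 4343 tested genes at this level 32.7% had both below and 32.8% both above. Their median log2 fold change was -0.25, while that of all genes at this level was 0.005. Their Top1 KD replicates differed by a median of -0.18 (replicate 1 minus 2). Members between 100 and 1000 normalized counts (78 genes) had a median of -0.09, against 0.03 for all genes at that level, and those under 100 (38 genes) had -0.40, against -0.11. In single pairings of libraries the median of these 38 was smaller in size, from -0.36 to -0.09. They include genes that passed the filter through 1 group alone.

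Short members were also described apart, a grouping made after the values were seen. Of 26 members spanning less than 5 kb, 8 had no read, 7 stayed below the filter and 11 were tested, 6 in the middle and 5 in the distal stretch. All 11 had a lower mean of the log2 values in Top1 KD cells, with a median log2 fold change of -0.59. By mean normalized count, however, the gene at 57966542 was higher there (12.99 against 10.49 in scramble cells). Both Top1 KD libraries lay below both scramble libraries for 7 of the 11. Among all 1216 tested genes of this span 56.9% had the lower mean, 30.7% had both Top1 KD libraries below, and the median was -0.09. Of the 11, ENST00000485876 was called. The gene at 55996371 to 55998935 had 846 and 827 normalized counts in scramble and 502 and 691 in Top1 KD cells (log2 fold change -0.51, SE 0.17, adjusted p = 0.0631 by limma). The gene at 59067079 to 59070327, near the end of the chromosome, had 610 and 557 against 410 and 414 (log2 fold change -0.50, SE 0.18, adjusted p = 0.0732 by limma). The gene at 54694119 to 54697521 had 316 and 466 against 183 and 287, without overlap between the groups (log2 fold change -0.74, SE 0.27, adjusted p = 0.0767 by limma). In these 11 genes the first Top1 KD replicate was lower than the second by a median of 0.28 on the log2 scale, and the part of that library in the result was not tested. Members of 5 to 20 kb had a median of -0.07 (79 genes, against -0.05 for all genes of that span), and members of 20 kb and over had -0.17 (35 genes, against 0.03).

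**Figure D3:**
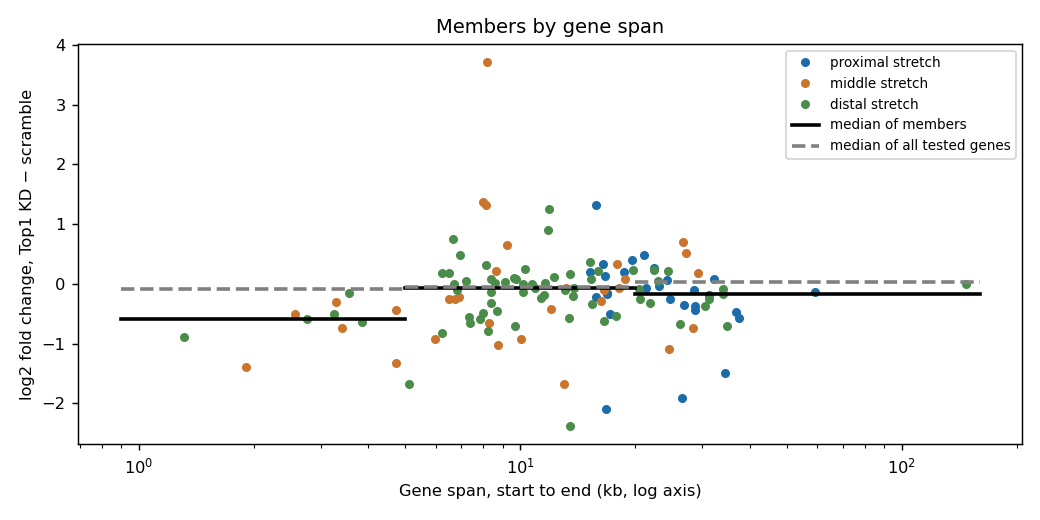
Log2 fold change between Top1 KD and scramble cells (vertical axis) against gene span in kb (log axis) for the 125 tested members. Black lines are the medians of the members in 3 span classes (-0.59, -0.07 and -0.17) and dashed lines those of all tested genes of the same spans (-0.09, -0.05 and 0.03), and no tested member under 5 kb lies above 0.

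Counting reads rather than genes gave the same direction. The members took 0.402% and 0.394% of all reads on genes in scramble and 0.348% and 0.372% in Top1 KD cells. The groups did not overlap, and the mean share was 0.398% ± 0.006 (SD, n = 2) against 0.360% ± 0.017 (SD, n = 2), a difference of -9.59%. An exact permutation test of 2 libraries against 2 gave a two-sided p of 0.333, the smallest it can give. All 3 stretches had a lower share in each Top1 KD library than in each scramble library, with ratios of 0.82 in the proximal, 0.90 in the middle and 0.93 in the distal stretch.

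The proximal ratio rested on 1 gene. The gene at 52693292 held between 38.8% and 49.7% of the reads of that stretch. Once it was left out, the proximal share was 0.0321% and 0.0351% in scramble and 0.0319% and 0.0318% in Top1 KD cells, a ratio of 0.95. Without their own most read genes the ratios of the middle and distal stretches were 0.92 and 0.94.

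**Figure D4:**
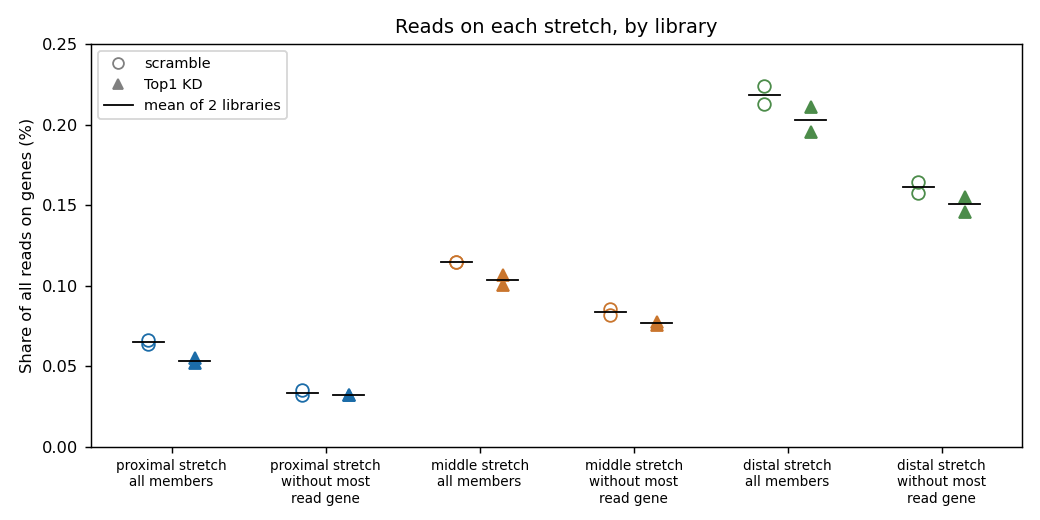
Share of all reads on genes (%, vertical axis from 0) that fell on each stretch in the 2 scramble (open circles) and 2 Top1 KD libraries (triangles), with and without the most read gene of the stretch, and lines at the means. The Top1 KD libraries lie below the scramble libraries in each stretch, and in the proximal stretch the gap narrows from a ratio of 0.82 to 0.95 once the gene at 52693292 is left out.

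Other parts of chromosome 19 were set beside these values, without a test of the difference. The zinc finger cluster of 19p12 (19623230 to 24312654) has 45 genes in the table, of which 25 were tested. None of these was called by limma, edgeR or DESeq2 on the 4 libraries with this filter, while limma called 8.15% of all tested genes. Of the 18 whose mean reached 100 normalized counts limma called 1, against 1044 of all 10308 genes tested in that setting. An unadjusted p under 0.05 was found for 4 of the 25 tested, 1 lower and 3 higher in Top1 KD cells, against 3830 of all 13086 tested genes. Of these 25, 18 (72.0%) had the lower mean in Top1 KD cells, against 64.8% of the members. Both Top1 KD libraries lay below both scramble libraries for 9 (36.0%), against 35.2% of the members, and above both for 5. The median log2 fold change of the 25 was -0.15. The pairings with Top1 KD replicate 2 gave -0.28 and -0.21, while both pairings with replicate 1 gave -0.02. Its share of all reads, however, overlapped between the groups, at 0.0464% and 0.0466% in scramble and 0.0481% and 0.0435% in Top1 KD cells. Outside both zinc finger regions, the 709 tested genes of chromosome 19 had a median of -0.07, 56.3% had the lower mean, and 6.63% were called. On the other chromosomes the median was 0.01. The rest of chromosome 19 took a lower share of reads in Top1 KD cells as well, with a ratio of 0.93.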

How the data were processed

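Total RNA-seq of HEK293 cells (2 Scramble and 2 Top1 KD libraries) was analysed, and the other assays of the study were not used here. Reads were trimmed by the authors (fastq-mcf) and aligned to hg19 by TopHat2 version 2.0.5, and only unique alignments were kept. The submitters' processing notes also name HTSeq and DESeq2. Genes with near-identical copies, as in zinc finger families, can lose reads to that filter, so their levels are uncertain. The values the authors deposited are a signal, counts divided by a DESeq2 size factor per library. Their own comparison (call, fold change, statistic, p-values) was not used. No column of per-library values was left without a sample.

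Divided by what 1 read is worth in its library, 100% of values came out whole (tolerance 0.05 reads), so reads were recovered by rounding. limma 3.58.1 in R 4.3.3 was fitted with a mean-variance trend on log2(normalized count + 1) over the 13086 genes that reached 10 normalized counts in 2 libraries or more. Fold changes are differences of group means on this scale. The pseudocount understates changes of low genes. Where replicates are uneven, fold changes can also be larger than those of the mean counts or have the opposite sign. Spans are start to end. edgeR 4.0.16 and DESeq2 1.42.0 on recovered reads, other scalings, filters, pseudocounts, thresholds, a replicate block and leaving out each library were alternatives. The fit was tested on simulated counts. Named genes were, in each stretch, up to 3 called members per direction whose mean normalized count was 20 or more, and the 2 with most counts per kb of span. Without gene names, planned results by symbol are not reported. Members and lists were chosen with earlier results of these data known.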

Additional observations from a re-analysis of the deposited data

How the results depend on the processing

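The number of genes called was 1066. It was 1937 with no fold threshold and 340 with a fold threshold of 2, where more or fewer genes pass by construction, and leaving out 1 library at a time gave between 316 and 1329. The other alternatives gave from 1004 to 1102. Against 5 members called lower and 1 called higher, a fold threshold of 2 gave 3 and 0. With no filter 2 were called lower, since ENST00000485876 and the genes at 54610320 and 58962971 then had adjusted p-values of 0.0546, 0.0607 and 0.0617 by limma. Leaving out 1 library gave from 1 to 8 called lower and from 0 to 1 called higher. Library-size scaling, DESeq2 and a pseudocount of 0.1 called the same 6 members, and edgeR, TMM scaling, a pseudocount of 5 and a mean of at least 100 normalized counts called these 6 and the gene at 54369611. Replicate numbers did not pair the libraries (correlation of deviations -0.01), and with a replicate block 8 members were called, the same 6 among them, and 1085 genes in all.

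The median log2 fold change of the members was below 0 in each alternative, from -0.18 to -0.10 (-0.098 with no filter, -0.096 for a mean of at least 100). With 1 library left out, the median of the distal stretch lay between -0.154 and -0.130, against -0.097 with all 4. Moving the limits of the stretches by 0.2 Mb left their medians between -0.26 and -0.09. The ratio of read shares of the members ran from 0.87 to 0.93 over 5 alternatives. For the members and each stretch, each Top1 KD share lay below each scramble share. Leaving out 1 library therefore could not bring a ratio to 1. The comparison was limited in that 91 members were too low to test. Whether sequencing depth or low expression was the reason was not tested.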
